A study of Homo sapiens with 4 samples.

Results

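Transcripts of 10 Notch genes were measured by RNA-seq in SK-N-SH cells with or without overexpression of the long noncoding RNA *RP5-998N21.4*. The genes are 3 receptors (*NOTCH1*, *NOTCH2* and *NOTCH3*), 4 ligand genes (*JAG1*, *JAG2*, *DLL1* and *DLK1*), the coactivator *MAML2* and 2 target genes (*HES1* and *HEY1*). They were taken by symbol from the table of counts, in which 57820 genes are listed, and each was summed over its transcripts. All 10 were found, and all 10 passed the filter on low counts. A second identifier carrying the symbol *JAG1* had 0 counts in every library and was left aside. The SK-N-SH line was established from a human neuroblastoma. One group (OE, 2 libraries) was transduced with a recombinant lentivirus in which the EF1a promoter drives *RP5-998N21.4*. The other group (vector control, 2 libraries) received the empty lentivirus vector, although its titles and genotype label call it wild type. No source used here says whether the 2 libraries of a group came from separate transductions or whether the cells were cloned, so the p-values measure the spread between these libraries, which may be technical.

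Notch is a receptor that is cut when it meets a ligand on a neighbouring cell. The Jagged (JAG) and Delta-like (DLL) proteins are such ligands, and the freed intracellular part of the receptor enters the nucleus, binds the DNA-binding protein RBPJ together with a Mastermind-like (MAML) coactivator and switches on repressor genes of the HES and HEY families. Neuroblastoma cells occur in an adrenergic, neuron-like state and a mesenchymal state, SK-N-SH cultures are known to hold cells of both, and Notch receptors and *MAML2* have been described among the genes of the mesenchymal state.

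*HES1* is the best known direct Notch target, and its promoter is shown because RBPJ binds the hexamer TGGGAA there. The 250 bases before the start site were taken from RefSeq (table build GRCh38.p14) for the 7 of the 10 genes that the table lists, and those of *HES1* and *JAG1* were found once each, unchanged, on their chromosome in GRCh37, the build of the counts (hg19). Those of *HES1* lie on the plus strand at chr3:193853687-193853936, and those of *JAG1*, the ligand gene with the most reads, on the minus strand at chr20:10654648-10654897. Capitals mark TGGGAA and the related heptamer GTGTGAA, searched on both strands together with CACGTG.
HES1: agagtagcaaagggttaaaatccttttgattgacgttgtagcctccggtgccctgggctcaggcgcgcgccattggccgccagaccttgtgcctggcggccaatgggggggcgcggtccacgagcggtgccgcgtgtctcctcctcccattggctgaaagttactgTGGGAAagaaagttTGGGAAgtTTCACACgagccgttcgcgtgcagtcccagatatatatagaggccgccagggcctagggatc
JAG1: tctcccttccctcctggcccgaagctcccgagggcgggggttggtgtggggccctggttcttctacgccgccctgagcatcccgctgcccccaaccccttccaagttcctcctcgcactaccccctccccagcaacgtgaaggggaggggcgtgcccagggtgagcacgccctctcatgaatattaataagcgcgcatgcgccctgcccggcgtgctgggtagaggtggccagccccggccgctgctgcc
The *HES1* window held TGGGAA at positions -84 and -70 on the plus strand and GTGTGAA on the other strand (read as TTCACAC) at position -62, counted from the start site. Over all 35116 promoter windows of this length, 20.8% held TGGGAA, 2.90% held it at least 2 times, 2.48% held GTGTGAA and 6.34% held CACGTG. At least 2 copies of TGGGAA together with a GTGTGAA were in 41 windows, or 0.117%. That combination is the one in the *HES1* window, so its share is a description and not a test of *HES1*. None of the 3 motifs was in the windows of *NOTCH1*, *NOTCH2*, *NOTCH3*, *JAG1*, *JAG2* or *MAML2*. *DLL1*, *DLK1* and *HEY1* are not in the table. These matches are letters only, and no binding was measured.

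Library totals were 23785164 and 24098041 counts with the empty vector and 24601728 and 28307591 with OE. *RP5-998N21.4* itself had 32 and 33 counts with the empty vector and 2407 and 2808 with OE, reads that can be shared with near-identical copies on chromosome 1. Normalised read counts are given as CPM, the count per 1000000 counts of the TMM-scaled library, which suits a comparison of 1 gene between libraries. Differences between OE and the vector control were tested with edgeR's quasi-likelihood test over 20528 genes, with Benjamini-Hochberg adjustment over all of them.

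Both target genes, 3 of the 4 ligand genes and 2 of the 3 receptors were at a higher level in the OE libraries. *NOTCH3* and *MAML2* were at a lower level, and *DLL1* did not differ beyond its spread. In 7 genes the OE pair lay entirely above the control pair, and in 2 genes entirely below. Over all genes tested, 27.8% lay entirely above, 27.6% entirely below and 55.4% on either side. At an unadjusted p under 0.05, 7 of the 10 genes were higher, against 10.1% of all genes tested, and 2 were lower, against 10.7%. The study set its thresholds at an adjusted p under 0.01 with a log2 fold change beyond 0.5 in size, and there edgeR called 0 of the 10 and 0 (0%) of all genes. With the adjusted p relaxed to 0.05 it called 0 of the 10, against 0.594% of all genes. At an unadjusted p under 0.05 in either direction there were 9 of the 10, against 20.8%. DESeq2's Wald test at the same thresholds called 4 of the 10 (*HES1*, *HEY1*, *JAG1* and *DLK1*, all higher), against 4.35% of all genes called higher, 4.42% called lower and 8.77% in all. The 10 genes were chosen with earlier results of these data known, so these counts describe them and do not test them as a set. The median log2 fold change of the 10 genes was 0.42, and that of all genes tested was 0.01. With 2 libraries against 2, an exact permutation test of a single gene cannot give a two-sided p below 0.333. In bulk RNA, a different number of cells expressing a gene and a different amount of RNA per cell cannot be told apart.

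**Figure D1:**
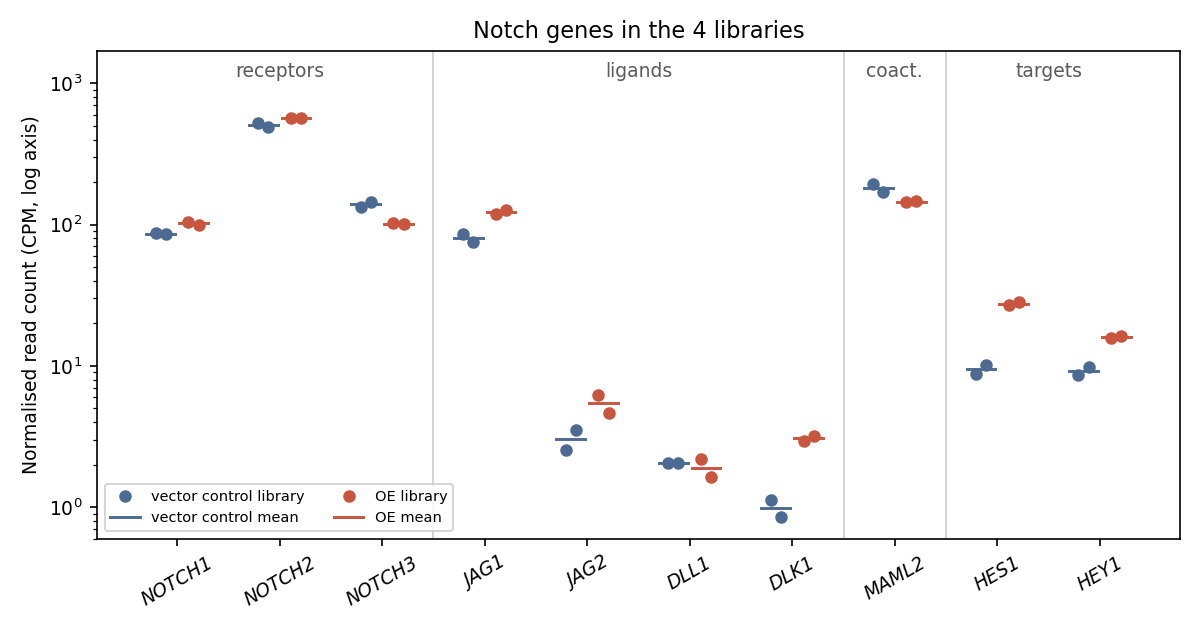
Normalised read count of each Notch gene (vertical log axis, CPM) in the 4 libraries; points are libraries (vector control blue, OE red) and short lines are the means of 2. The OE points of *HES1*, *HEY1*, *JAG1* and *DLK1* stand above the control points, those of *NOTCH3* and *MAML2* stand below, and those of *DLL1* overlap.

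Among the targets, *HES1* encodes a basic helix-loop-helix repressor that holds back neuronal differentiation genes. *HES1* (ENSG00000114315.3, chromosome 3, 193853937 to 193856521, plus strand of hg19) had 204 and 239 counts with the empty vector and 677 and 817 with OE. Both OE libraries were well above both controls. Its level was 9.47 ± 0.997 CPM (SD, n = 2) with the empty vector and 27.6 ± 0.895 CPM (SD, n = 2) in OE. The log2 fold change was 1.54 (SE, standard error, 0.135, with a 95% interval 1.16 to 1.93), a 2.92-fold difference, with an unadjusted p of 0.000473 and an adjusted p of 0.059 from edgeR. By unadjusted p it ranked 164 among the 20528 genes. Nearly all of its reads were on the transcript ENST00000232424.3, and 7 counts in vector control replicate 1 were on a shorter one.

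*HEY1* encodes a related repressor that Notch switches on in many tissues. *HEY1* (ENSG00000164683.12, chromosome 8, 80674606 to 80680092, minus strand) had 200 and 229 counts with the empty vector and 398 and 474 with OE. The groups did not overlap, and the replicates lay close together. Its level was 9.17 ± 0.818 CPM (SD, n = 2) against 16.1 ± 0.372 CPM (SD, n = 2), which gave a log2 fold change of 0.81 (SE 0.135, 95% interval 0.43 to 1.20, adjusted p = 0.0987 from edgeR). Per unit of transcript length, *HES1* stood at 1.52 and 1.46 times the level of *HEY1* with the empty vector and at 2.48 and 2.40 times in OE.

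The transcript that held the reads of *HEY1* differed between replicates. ENST00000337919.5 took every one of the 200 counts of vector control replicate 1 and 394 of the 398 in OE replicate 1, and had 0 counts in both replicates numbered 2. ENST00000354724.3 took every one of the 229 counts of vector control replicate 2 and 467 of the 474 in OE replicate 2, and had 0 counts in the others. A count of 0 is read as a limit of 3 counts, for counting error only. The switch followed the replicate number and not the condition, so that the gene total could be compared between conditions and the single transcripts could not. When each gene was represented only by its transcript with the highest mean count, the log2 fold change of *HEY1* was 0.72 with an adjusted p of 0.961 from edgeR. In the other 9 genes the same transcript held the most reads in all 4 libraries.

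**Figure D2:**
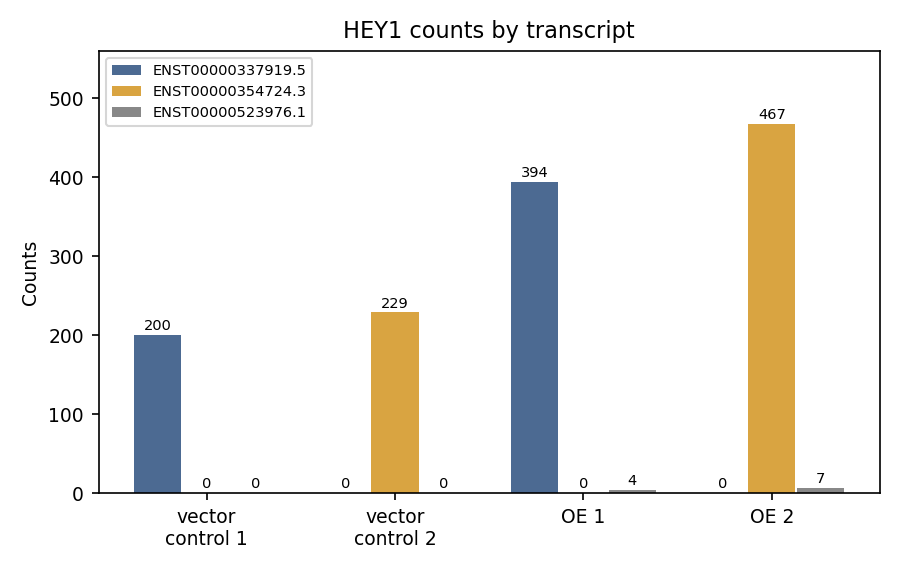
Counts of *HEY1* (vertical axis) on each of its 3 transcripts with reads, by library. One transcript holds 200 and 394 counts in the replicates numbered 1, and the other holds 229 and 467 in the replicates numbered 2, while the gene totals separate OE from the vector control.

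Of the ligand genes, *JAG1* had by far the most reads. It encodes Jagged 1, a membrane ligand that activates Notch receptors. *JAG1* (ENSG00000101384.7, chromosome 20, 10618332 to 10654647, minus strand) had 2002 and 1782 counts with the empty vector and 2965 and 3666 with OE. Both OE libraries were above both controls, at 122 ± 6.07 CPM (SD, n = 2) against 80.9 ± 7.17 CPM (SD, n = 2). Its log2 fold change was 0.60 (SE 0.105, 95% interval 0.30 to 0.90, adjusted p = 0.106 from edgeR). Exons of 1 gene on the opposite strand overlap those of *JAG1*. The use of strand in counting is not given in the sources used here, so reads of the pair cannot be told apart.

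*JAG2*, which encodes the second Jagged ligand, had few reads. *JAG2* (ENSG00000184916.4, chromosome 14, 105607319 to 105635161, minus strand) had 59 and 83 counts with the empty vector and 155 and 135 with OE. The groups were separate, but the replicates differed 1.39-fold with the empty vector and 1.32-fold with OE. The log2 fold change of 0.84 carried a wide 95% interval, from 0.05 to 1.63 (SE 0.277, unadjusted p = 0.0427, adjusted p = 0.224 from edgeR). One other gene shares exonic sequence with *JAG2* on the same strand.

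*DLK1* encodes a Delta-like membrane protein that lacks the domain by which canonical ligands bind Notch. It is a known marker of immature neuroendocrine cells. *DLK1* (ENSG00000185559.9, chromosome 14, 101192042 to 101204561, plus strand) had 26 and 20 counts with the empty vector and 74 and 93 with OE. Its log2 fold change of 1.64 was the highest of the 10 genes with all 4 libraries (SE 0.252, 95% interval 0.93 to 2.36, adjusted p = 0.0931 from edgeR), on a level of 0.984 ± 0.188 CPM (SD, n = 2) with the empty vector and 3.08 ± 0.188 CPM (SD, n = 2) in OE. Without vector control replicate 2 it was 1.46, below the 1.65 of *HES1*.

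*DLL1*, a canonical Delta-like ligand, was the gene without a detectable difference. *DLL1* (ENSG00000198719.7, chromosome 6, 170591294 to 170615653, minus strand) had 48 and 48 counts with the empty vector and 55 and 47 with OE, and the groups overlapped. The log2 fold change was -0.11 with a 95% interval from -0.84 to 0.62 (adjusted p = 0.851 from edgeR), so that at this depth a difference smaller than these bounds was not detectable. Exons of another gene on the opposite strand overlap those of *DLL1*.

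The receptor genes differed less than the targets, and not all in 1 direction. *NOTCH3* (ENSG00000074181.4, chromosome 19, 15269849 to 15311806, minus strand) encodes a receptor best known from vascular smooth muscle. It had 3123 and 3423 counts with the empty vector and 2564 and 2899 with OE, and after scaling both OE libraries lay below both controls. The level was 140 ± 8.17 CPM (SD, n = 2) with the empty vector and 101 ± 1.38 CPM (SD, n = 2) in OE, with a log2 fold change of -0.47 (SE 0.0823, 95% interval -0.70 to -0.23, adjusted p = 0.106 from edgeR). DESeq2 gave *NOTCH3* an adjusted p of 1.49e-07, and its fold change was short of the study's threshold.

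*NOTCH1* and *NOTCH2*, which encode the most widely expressed receptors, were slightly higher in OE. *NOTCH1* (ENSG00000148400.9, chromosome 9, 139388885 to 139440500, minus strand) had 2028 and 2017 counts with the empty vector and 2639 and 2881 with OE, with a log2 fold change of 0.24 (SE 0.0796, 95% interval 0.02 to 0.47, adjusted p = 0.220 from edgeR). *NOTCH2* (ENSG00000134250.13, chromosome 1, 120454176 to 120643366, minus strand) had 12151 and 11542 counts with the empty vector and 14184 and 16452 with OE, with a log2 fold change of 0.16 (SE 0.0544, 95% interval 0.01 to 0.32, adjusted p = 0.227 from edgeR). Both intervals come close to 0, and the differences are small beside those of the targets. Part of *NOTCH2* is copied in the human-specific gene *NOTCH2NL* (ENSG00000213240.7), which had 159 and 49 counts with the empty vector and 340 and 323 with OE (log2 fold change 1.47, SE 0.627, adjusted p = 0.301). Reads of the shared part may have been divided between them, and all *NOTCH2NL* counts together were few beside those of *NOTCH2*.

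The balance among the receptor mRNAs was also compared. As a share of the summed per-length level of the 3 receptors, *NOTCH3* made up 22.0% and 24.3% with the empty vector and 16.3% and 16.1% in OE. The share of *NOTCH2* was 65.0% and 62.7% in the vector control and 68.5% and 69.4% in OE, and that of *NOTCH1* was 13.0% and 13.0% against 15.2% and 14.5%. None of these shares overlapped between the conditions (exact permutation test, two-sided, p = 0.333 for each, the smallest that 2 libraries against 2 allow). The shares within a library add up to the whole, so they are not 3 separate results. By level, 55.4% of all genes tested had groups that did not overlap. *NOTCH1* stood at 0.589 and 0.535 times the per-length level of *NOTCH3* in the vector control and at 0.934 and 0.902 times in OE.

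**Figure D3:**
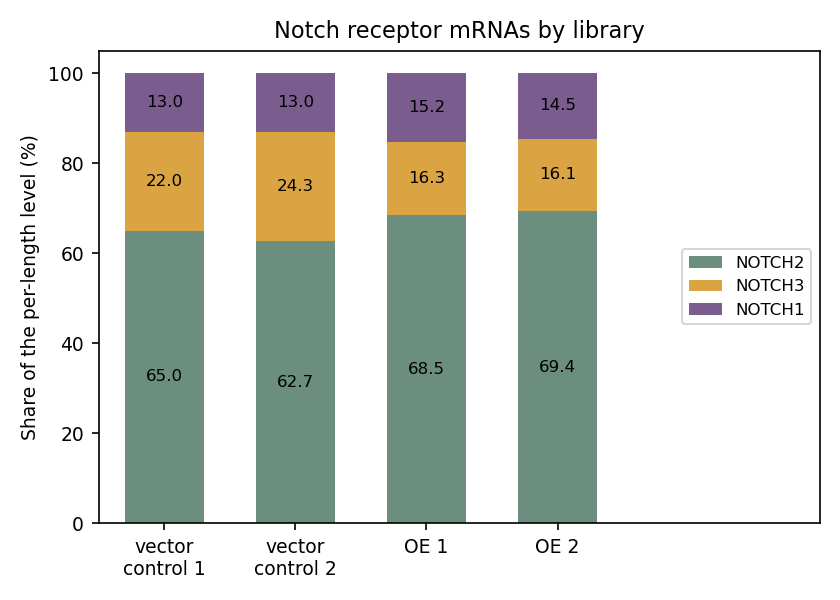
Share of each receptor in the summed per-length level of *NOTCH1*, *NOTCH2* and *NOTCH3* (vertical axis, percent) in each library. *NOTCH3* takes 22.0% and 24.3% in the vector control bars and 16.3% and 16.1% in the OE bars.

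*MAML2* encodes a Mastermind-like protein that bridges the Notch and RBPJ complex to the transcription machinery. *MAML2* (ENSG00000184384.9, chromosome 11, 95709762 to 96076359, minus strand) had 4494 and 4016 counts with the empty vector and 3599 and 4279 with OE. After scaling for depth, both OE libraries (143 and 148 CPM) lay below both vector control libraries (193 and 171 CPM). The log2 fold change was -0.32 (SE 0.0912, 95% interval -0.58 to -0.06, adjusted p = 0.187 from edgeR). Exons of 2 genes on the opposite strand overlap those of *MAML2*.

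**Figure D4:**
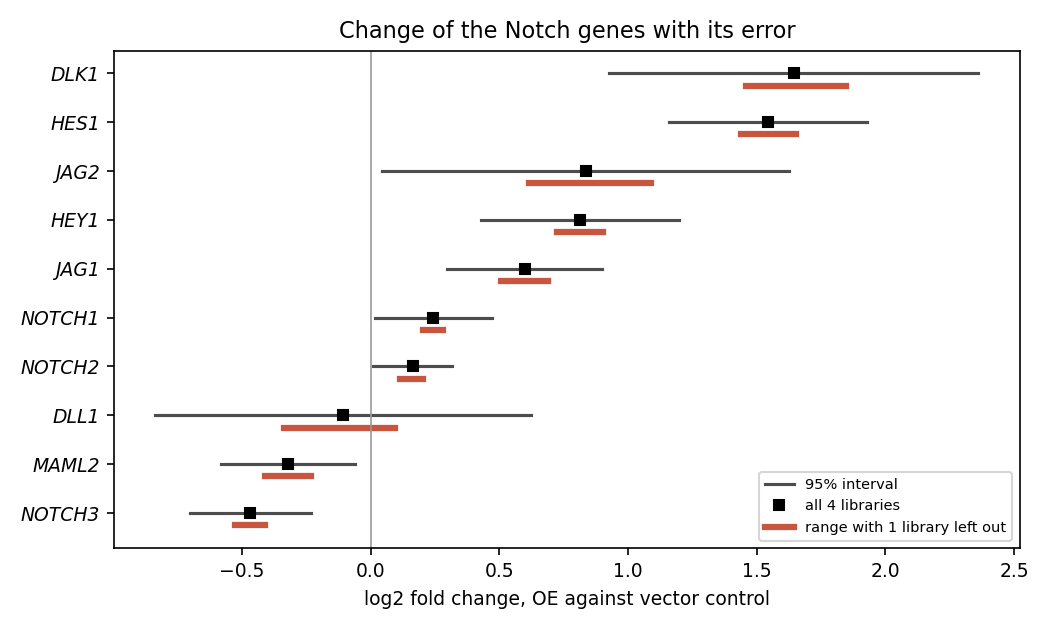
Log2 fold change of each Notch gene between OE and the vector control (horizontal axis); squares are the values with all 4 libraries, black lines their 95% intervals and red lines the range when 1 library is left out. *HES1* lies at 1.54 with an interval from 1.16 to 1.93, *NOTCH3* at -0.47, and the range for *DLL1* crosses 0.

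Levels were compared between genes on a per-length scale (TPM, the count per base of transcript, scaled to sum to 1000000 in a library), with transcript lengths from the lifted GENCODE annotation. In the vector control the order was *NOTCH2* at 84.2 ± 4.79 TPM, *MAML2* at 48.4 ± 5.05 TPM, *NOTCH3* at 30.5 ± 1.21 TPM, *JAG1* at 25.8 ± 2.74 TPM and *NOTCH1* at 17.1 ± 0.494 TPM (SD, n = 2 throughout). Then followed *HES1* at 11.5 ± 0.841 TPM, *HEY1* at 7.73 ± 0.786 TPM, *DLL1* at 1.03 ± 0.0257 TPM, *JAG2* at 0.992 ± 0.213 TPM and *DLK1* at 0.401 ± 0.0837 TPM. Of the neighbours in this order, the libraries of *DLL1* and *JAG2* overlapped. In OE, *JAG1* stood at 40.8 ± 2.71 TPM beside *MAML2* at 40.4 ± 1.61 TPM, which overlapped, and *HES1* at 34.7 ± 1.74 TPM stood above *NOTCH3* at 23.0 ± 0.0970 TPM. *NOTCH2* remained the most abundant in every library. *JAG1* held 89.7% to 92.2% of the summed level of *JAG1*, *JAG2*, *DLL1* and *DLK1* in all 4 libraries. Ligand genes beyond these were not in that sum.

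The rest of the pathway was measured on 64 further genes grouped by role, of which 53 were tested. At an unadjusted p under 0.05, 8 were higher and 5 lower in OE, together 24.5% of those tested, against 20.8% of all genes tested. Their median log2 fold change was 0.09. EdgeR called 0 of them at the study's thresholds, and DESeq2 called 7 (5 higher and 2 lower, 13.2% of the 53), against 8.77% of all genes. Of the 11 genes not tested, 6 had 0 counts in every library (*NOTCH4*, *HES5*, *HEY2*, *HEYL*, *NEUROG1* and *ATOH1*, named for that), and the other 5 had at most 12 counts in any library.

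Among 8 other target genes, 4 were tested. The 1 gene (25% of the 4) with an unadjusted p under 0.05, against 20.8% of all genes, was *HES4*, a repressor of the same family, with 30 and 26 counts with the empty vector and 86 and 71 with OE (log2 fold change 1.29, SE 0.285, unadjusted p = 0.0123). *HES6* and *HES7* had log2 fold changes of 0.23 and 0.31, both with a p above 0.05. *NRARP*, named after its values were seen, had 151 and 214 counts with the empty vector and 222 and 228 with OE. After scaling its groups overlapped, with a log2 fold change of 0.10 (unadjusted p = 0.682 from edgeR).

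The proteases that cut Notch receptors differed in direction. Of the 9 genes listed for this step, 1 was higher and 2 lower at an unadjusted p under 0.05 (33.3%), against 20.8% of all genes. *FURIN*, which cuts the receptor on its way to the surface, was at 171 ± 9.25 CPM (SD, n = 2) with the empty vector and 102 ± 4.75 CPM (SD, n = 2) in OE (log2 fold change -0.74, adjusted p = 0.0707 from edgeR). *ADAM10*, the protease that cuts ligand-bound Notch, was at 170 ± 10.4 CPM (SD, n = 2) against 120 ± 1.39 CPM (SD, n = 2), which gave a log2 fold change of -0.50 (adjusted p = 0.097). *ADAM17*, which can cut Notch without ligand, was on the other side, with a log2 fold change of 0.37 (unadjusted p = 0.0424).

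In the nucleus, *MAML3*, a coactivator related to *MAML2*, had 1268 and 1394 counts with the empty vector and 1912 and 2003 with OE (log2 fold change 0.35, unadjusted p = 0.0314), so *MAML2* and *MAML3* had opposite signs. *TLE3*, a corepressor that HES proteins recruit, had a log2 fold change of 0.71 (SE 0.0955, adjusted p = 0.0797 from edgeR). It was the 1 of 9 corepressor genes (11.1%) with an unadjusted p under 0.05, against 20.8% of all genes. *RBPJ*, singled out after its values were seen, had 279 and 1932 counts with the empty vector and 2463 and 309 with OE, and no difference between the conditions could be read from it. Its reads lay mostly on ENST00000514380.1 in vector control replicate 1, on ENST00000342320.4 in vector control replicate 2 and OE replicate 1, and on ENST00000348160.4 in OE replicate 2. In 4 of the 53 genes (*RBPJ* and, also named after their values were seen, *APH1A*, *APH1B* and *NCSTN*, subunits of gamma-secretase, the enzyme that frees the intracellular part) replicates of a condition differed more than 4-fold, while the widest gap between replicates among the 10 Notch genes was 1.39-fold.

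Genes that limit or end the signal were on both sides. Of the 10 in this list, 2 were higher and 2 lower at an unadjusted p under 0.05 (40%), against 20.8% of all genes. In 3 the OE pair lay entirely above the control pair and in 6 entirely below, against 27.8% and 27.6% of all genes. *DTX1*, which encodes a ubiquitin ligase that binds Notch, had a log2 fold change of 0.70 (unadjusted p = 0.0153), and *FBXW7*, whose product marks the intracellular part for breakdown, had one of 0.34 (unadjusted p = 0.0316). *FBXW7* was named after its values were seen. *CCNC*, the cyclin that partners CDK8 in this turnover, had 854 and 909 counts with the empty vector and 520 and 665 with OE (log2 fold change -0.79, adjusted p = 0.0832 from edgeR), and *NUMBL*, an inhibitor of Notch, had a log2 fold change of -0.38 (unadjusted p = 0.0186). *POFUT1*, which adds the fucose that receptors need, had a log2 fold change of -0.30 (unadjusted p = 0.020). *MIB1*, the main ligase for ligands, had a log2 fold change of 0.07. *CNTN1*, which encodes a neuronal adhesion protein also described as a Notch ligand, had 58 and 44 counts with the empty vector and 309 and 485 with OE, a log2 fold change of 2.73 (SE 0.271, adjusted p = 0.0631 from edgeR).

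**Figure D5:**
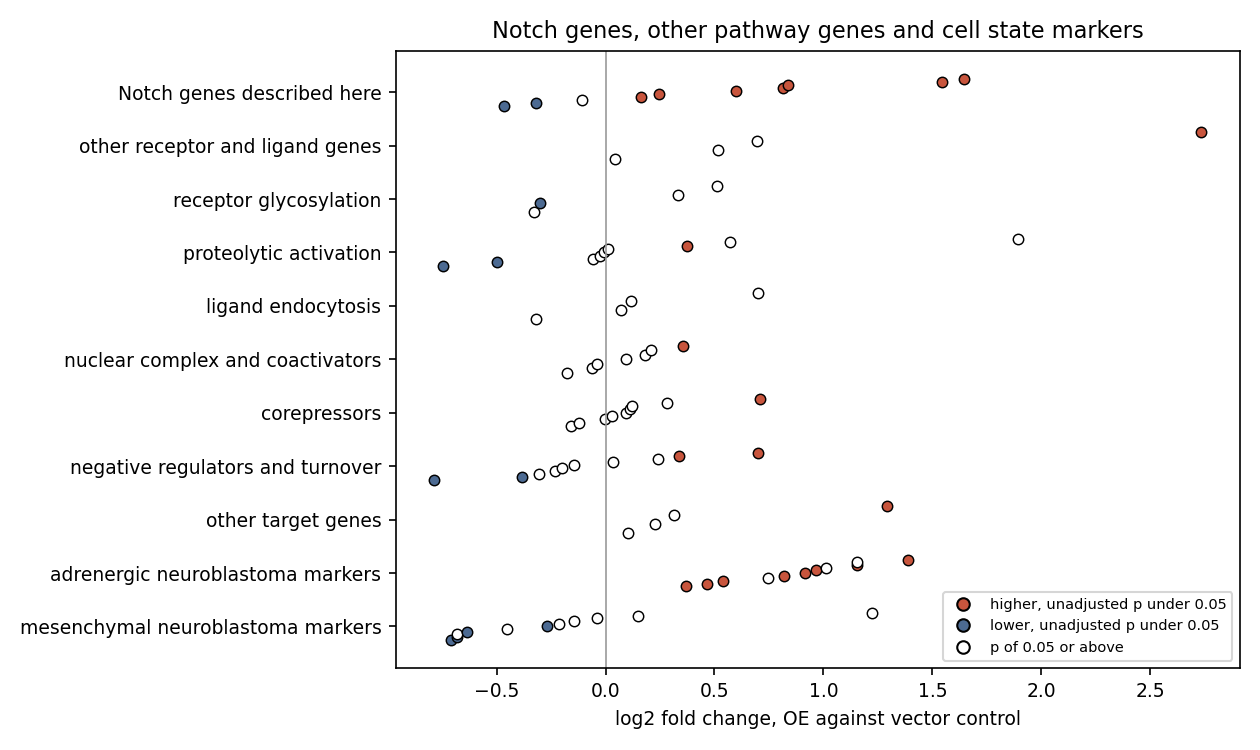
Log2 fold change between OE and the vector control (horizontal axis) of the tested genes of each list shown, 1 point a gene; filled points have an unadjusted p under 0.05 in edgeR. The Notch genes lie between -0.47 and 1.64, adrenergic markers lie from 0.37 to 1.39, and of the mesenchymal markers 9 of 11 lie below 0.

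Markers of the cell states of neuroblastoma were measured in the same libraries. Of 12 adrenergic markers, 11 were tested, and 8 were higher and 0 lower at an unadjusted p under 0.05, against 10.1% and 10.7% of all genes. *CHGA*, which encodes chromogranin A, had a log2 fold change of 1.39 (adjusted p = 0.0449 from edgeR). Their summed level was 786 to 788 CPM with the empty vector and 1243 to 1296 CPM in OE, and the defining marker *TH* had 0 counts in all 4 libraries. Replicates of some single adrenergic markers lay much further apart than those of the sum. *ELAVL4* had 78.9 and 12.5 CPM with the empty vector and 24.6 and 129 CPM in OE. *PHOX2A* had 14.2 and 53.8 CPM with the empty vector and 74.9 and 76.3 CPM in OE. Of 12 mesenchymal markers, 11 were tested, and 0 were higher and 4 lower at that p (*CD44*, *SNAI2*, *PRRX1* and *YAP1*), against the same 10.1% and 10.7%, with *MEOX2* at 0 counts in all 4 libraries. The summed level of the mesenchymal markers was 3394 and 3482 CPM in the vector control and 3801 and 2335 CPM in OE, so the groups overlapped, and *VIM* alone had 31466 counts in OE replicate 1 and 10869 in OE replicate 2. The part of such markers in the levels of the Notch genes was not tested. Of 8 markers of other tissues, 7 were found, 0 had a mean above 1 CPM, and 3 had 0 counts in every library.

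Leaving out 1 library at a time kept *HES1*, *HEY1*, *JAG1*, *DLK1* and *NOTCH3* at an unadjusted p under 0.05 in all 4 cases, with the lone library of a group assumed to vary like the others. *NOTCH1* had such a p in 0 of the 4 cases, and *NOTCH2*, *JAG2* and *MAML2* in 1 of the 4 each. The number of the 10 genes with such a p was 6 without vector control replicate 1, 7 without vector control replicate 2, and 5 without either OE library. Of all genes tested, 16.8%, 16.4%, 14.9% and 16.7% had such a p without vector control replicate 1, vector control replicate 2, OE replicate 1 and OE replicate 2. Over these cases the log2 fold change ran between 1.44 and 1.65 for *HES1*, between 1.46 and 1.85 for *DLK1*, between 0.72 and 0.90 for *HEY1*, between 0.51 and 0.69 for *JAG1* and between -0.53 and -0.41 for *NOTCH3*.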

How the data were processed

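RNA was measured in 2 vector control and 2 OE libraries of SK-N-SH cells. The authors used Bowtie2 for alignment to hg19, after trimming (Trimmomatic) and a check of the reads (FastQC). The deposited values are raw whole-number counts per transcript, 196520 in all. The submitters' processing notes name Bowtie2 2.0.4, Picard 2.21.6, StringTie 2.1.6 and DESeq2 without their roles. The counting tool, the annotation release and the use of strand are not given in the sources used here. A tool that divides reads among transcripts can place them on different transcripts in different libraries, so counts were summed per gene.

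Groups were taken from the treatment label. Genes passing edgeR's filterByExpr (20528) were scaled by TMM (factors from 0.976 to 1.02) and tested with edgeR 4.0.16 in R 4.3.3 (glmQLFit and glmQLFTest, two-sided, no covariates, 2 residual and 1.75 prior degrees of freedom). Standard errors were taken as the absolute log2 fold change divided by the square root of F. DESeq2 1.42.0, limma-voom (limma 3.58.1), RLE and upper-quartile scaling, other filters, a replicate block, leaving out each library and the transcript with the highest mean count were alternatives. The paper's methods name DESeq2. Depth was 23785164 to 28307591 counts per library, and the limit from a count of 0 is for counting error alone, as the library kit has no molecular identifiers.

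Per-length levels (TPM) used transcript lengths of the lifted GENCODE annotation for GRCh37, which covered 98.8% of the counts. The length of *NOTCH1* is that of its canonical transcript, since its transcript in the table has no entry there. Gene positions came from the same annotation. Named genes were the 10 Notch genes, their main transcripts, up to 3 genes per pathway list (those with the smallest p whose mean was 1 CPM or more), the markers, *NOTCH2NL* and *RP5-998N21.4*. Genes outside the rule are marked where they are named. The Notch genes, the lists and the rule were chosen with earlier results of these data known. *NEURL1* was matched by its gene ID, and *PECAM1* was not matched. Some genes that the rule names are not reported here. Figures were drawn with matplotlib 3.10.9.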

Additional observations from a re-analysis of the deposited data

How the results depend on the processing

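With DESeq2's Wald test, 4 of the 10 Notch genes and 7 of the 53 tested pathway genes passed the study's thresholds, as did 8.77% of all genes, against 0, 0 and 0% with edgeR, where 9, 13 and 20.8% had an unadjusted p under 0.05. An adjusted p under 0.05 in edgeR added 0 in both sets, as did limma-voom, both other scalings and both other filters at the study's thresholds. With 1 library left out, from 5 to 7 Notch genes and from 7 to 12 pathway genes had an unadjusted p under 0.05, against 14.9% to 16.8% of all genes. The lowest pathway count (7 of 53, 13.2%) and the lowest share of all genes were both without OE replicate 1. The log2 fold change of *DLL1* was -0.34 to 0.095 with 1 library left out, positive without OE replicate 2, and no other Notch gene changed its sign under the 12 alternatives. The adjusted p over the 12 alternatives ranged from 1.20e-22 to 0.296 for *HES1*, from 4.55e-05 to 0.298 for *DLK1*, from 3.38e-06 to 0.308 for *JAG1* and from 3.61e-06 to 0.961 for *HEY1*. The median over the Notch genes stayed between 0.37 and 0.46.

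The replicate number as a block left 5 Notch genes (4 higher and 1 lower) and 11 pathway genes at an unadjusted p under 0.05, with 14.9% of all genes. The deviations of libraries with the same replicate number were correlated at -0.02 over genes, and nothing in the labels pairs them. *JAG2*, *DLL1* and *DLK1* had the fewest counts of the 10 genes, 20 to 155 a library.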
